A study of Mus musculus with 8 samples.

Results

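The Schlafen genes studied here are the 7 murine family members Slfn1, Slfn2, Slfn3, Slfn4, Slfn5, Slfn8 and Slfn9, taken by name from the 52636 genes in the count table. All 7 were among the 13847 genes with enough reads to be tested. RNA was sequenced from primary microglia, the resident macrophages of the brain, in 4 libraries from cells given lipopolysaccharide (LPS) and 4 from cells given vehicle. LPS is a component of the outer membrane of Gram-negative bacteria that macrophages sense through Toll-like receptor signalling. Both groups came from wild-type mice, C57BL/6 in the labels and C57BL/6N for pups in the study's methods, were kept in DMEM with 10% fetal bovine serum and 10 ng/ml CSF-1, and differed in 24 h of 5 µg/ml LPS or vehicle. By the study's methods the cells were shaken off an astrocyte layer in mixed cultures of newborn mouse brain, so the vehicle group stands for cultured neonatal microglia and not for cells in the brain. The labels call the replicates biological without naming the animals or cultures behind them, so the p-values measure the spread between these libraries.

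Schlafen proteins share a core that binds or cuts RNA in several members, and many of their genes are switched on by type I interferon, which macrophages release after sensing bacteria or viruses. The murine proteins are grouped by length. Slfn1 and Slfn2 are short, Slfn3 and Slfn4 are of intermediate length, and Slfn5, Slfn8 and Slfn9 are long and carry an added helicase-like region. Slfn2 is best known for keeping T cells and monocytes in check and for protecting transfer RNA from cleavage, while Slfn4 is known from myeloid cells and macrophages.

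Of the 7 members, 6 were higher after LPS and Slfn3 was lower at an adjusted p under 0.05 (edgeR quasi-likelihood test with Benjamini-Hochberg adjustment over all tested genes). These counts stand against 64.1% of all tested genes that passed the same threshold, 30.3% of them higher and 33.8% lower. The median log2 fold change of the 7 members was 1.83, beside -0.11 over all tested genes. The 2 largest changes were those of Slfn4, about 698-fold, and Slfn1, about 112-fold, and they ranked 35 and 114 of the 13847 log2 fold changes in order from the highest. The other 4 members that rose did so between 2.24-fold and 4.02-fold. In 6 members the lowest LPS library lay above the highest vehicle library, as it or its reverse did in 60.2% of tested genes, and in Slfn3 the groups overlapped.

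Library totals were 22796052, 22595657, 26129375 and 21370879 counts in vehicle replicates 1 to 4 and 20071921, 22529706, 30604447 and 22581615 counts in LPS replicates 1 to 4. Values below are CPM, counts scaled to library size, after TMM scaling, a library correction that takes most genes as unchanged. The TMM factors ran from 1.21 to 1.32 in vehicle and from 0.701 to 0.833 in LPS libraries. Without these factors the median log2 fold change of all tested genes was lower by 0.68, and the split of calls moved from 4191 higher and 4686 lower to 1988 higher and 8457 lower. The 6 rises and the fall of Slfn3 passed the threshold on that scale too, but their sizes moved with it. The rises were then 438-fold for Slfn4, 70.8-fold for Slfn1, 2.50-fold for Slfn8, 2.21-fold for Slfn2, 2.15-fold for Slfn9 and 1.39-fold for Slfn5, and Slfn3 was 3.40-fold lower in place of 2.13-fold. In bulk RNA, a change in the share of cells that express a gene cannot be told apart from a change in RNA per cell.

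The labelled cell type was checked against 8 microglial markers. All 8 passed the filter, with a summed level of 7426 to 8525 CPM in vehicle and 1182 to 1671 CPM in LPS libraries, and 7 of the 8 were lower after LPS. Csf1r, the receptor for the CSF-1 in the medium, was the most abundant in vehicle, at a mean of 3181 CPM, and was at 426 CPM after LPS, where Tyrobp, a signalling adaptor of myeloid receptors, was at 431 CPM. Astrocyte markers summed to 7.68 to 34.3 CPM in vehicle and 38.2 to 120 CPM in LPS libraries, with 1 of 6 higher and 2 lower. Slc1a3 was the most abundant of them in vehicle, at a mean of 6.48 CPM, and Gja1, which encodes a gap junction protein, in LPS libraries, at 48.6 CPM from 0.87 CPM. The other 5 astrocyte markers summed to a mean of 24.3 CPM in vehicle and 12.1 CPM after LPS. Endothelial markers summed to 25.6 to 72.5 CPM and 94.0 to 204 CPM, with Flt1 the most abundant in both groups and Cldn5 and Tek at 3 counts or fewer in every library. T and NK cell markers summed to 3.98 to 7.95 CPM in vehicle and 1.31 to 2.15 CPM in LPS libraries, with 5 of 7 at 3 counts or fewer throughout.

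The neutrophil list moved in the same direction as Slfn1 and Slfn4. It summed to 0.07 to 0.77 CPM in vehicle and 572 to 1173 CPM in LPS libraries, and this sum was almost all S100a8, the 1 gene of the list that could be tested. The defining neutrophil markers Ly6g, Mpo and Elane were at 3 counts or fewer in every library, and S100a9 was listed at 0 in all 8. Why S100a9 was at 0 beside the high S100a8 was not looked into, so that 0 may not be a measured absence. Of the other lists, oligodendrocyte-lineage markers fell from 92.0 to 142 CPM to 16.6 to 22.5 CPM, with 3 of 6 lower, and neuronal markers from 5.84 to 16.3 CPM to 0.70 to 4.61 CPM, with 3 of 4 lower. Fibroblast markers summed to at most 20.9 CPM, B cell markers to at most 1.09 CPM and monocyte markers to at most 4.34 CPM in any library. The part of such cells in the Schlafen changes was not tested.

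One vehicle library stood apart in these genes. Vehicle replicate 3 was the highest vehicle library for 7 of 7 members, as it was for 30.0% of the 13847 tested genes. Its CPM exceeded the mean of the other 3 vehicle libraries 5.28-fold for Slfn1, 2.88-fold for Slfn3 and 2.67-fold for Slfn4, and between 1.35-fold and 1.74-fold for the other 4 members. It was also the highest vehicle library for 22 of 25 tested genes (88%) of a fixed list of the type I interferon pathway and for 19 of 21 (90.5%) of a list of RNA-directed antiviral effectors. The median difference on the log2(CPM + 1) scale was 0.89 over the members, 0.86 over the interferon list and 0.52 over the effector list, beside 0.00 over all tested genes. Vehicle replicate 3 was the deepest vehicle library. LPS replicate 3, the deepest LPS library and the one with the lowest TMM factor, 0.701, was the highest LPS library by CPM for all 7 members. The share of all tested genes highest in LPS replicate 3 was not counted, and the part of depth or scaling was not tested. Among vehicle libraries, replicate 3 had the lowest astrocyte, oligodendrocyte-lineage and neuronal marker sums, at 7.68, 92.0 and 5.84 CPM. Vehicle replicate 3 also had the highest microglial, fibroblast and monocyte sums, at 8525, 2.89 and 3.08 CPM, and was neither highest nor lowest in the remaining lists. Without it 6 members were higher and none lower in edgeR, 24 genes of the interferon list were higher and none lower, and of the effector list 17 were higher and 2 lower. The members whose values moved most without it, Slfn1, Slfn3 and Slfn4, are given below with and without it.

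**Figure D1:**
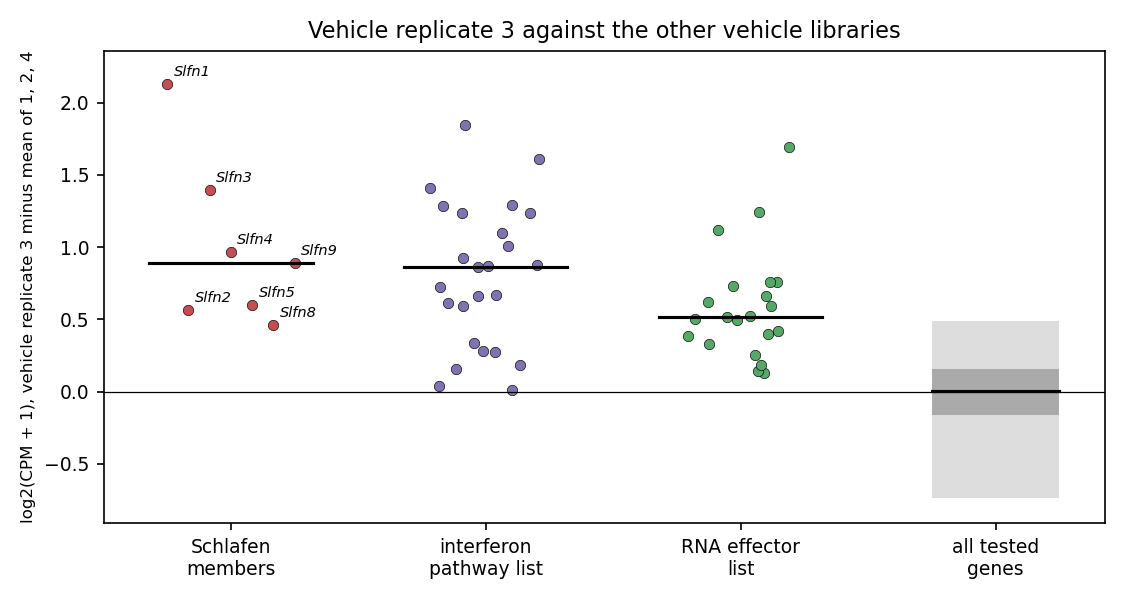
Difference on the log2(CPM + 1) scale between vehicle replicate 3 and the mean of vehicle replicates 1, 2 and 4, for the 7 Schlafen members, the tested genes of the interferon pathway and RNA effector lists (points, 1 per gene, with the median as a black line) and all tested genes (dark bar, 25th to 75th percentile, and light bar, 5th to 95th percentile, with the median as a line). All 7 members lie above 0, with a median of 0.89, while the 5th to 95th percentile of all tested genes runs from -0.74 to 0.49.

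The 7 members lie side by side on chromosome 11, between positions 82951349 and 83215154 of GRCm38, a stretch of 263806 bases with no other protein-coding gene inside it. In order along the chromosome they are Slfn5, Slfn9, Slfn8, Slfn2, Slfn1, Slfn4 and Slfn3, with the pseudogene Slfn10-ps between Slfn8 and Slfn2. Slfn8, Slfn9 and Slfn10-ps are on the minus strand and the other members on the plus strand. RefSeq promoter windows, 250 bases before to 50 bases after the annotated start in build GRCm38.p6, were found for all 7. They were searched on both strands for 4 motifs named for factors of the interferon and LPS responses.

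The interferon-stimulated response element core, GAAA and GAAA with any 2 bases between them, was present in the windows of Slfn5, Slfn8 and Slfn9, and in 3.44% of the 32851 promoter windows in the reference. The stretches that hold it are shown because these are the 3 long members, and because the minus-strand genes Slfn8 and Slfn9 carry the same 10 letters in nearly the same surroundings. Each is written 5′ to 3′ on the strand of its gene, with the core in capitals. In Slfn5 the core reads forward, and in Slfn8 and Slfn9 it is on the opposite strand and appears as its reverse complement. Slfn5 lies at chr11:82951917-82951986 (plus strand), Slfn8 at chr11:83020819-83020888 and Slfn9 at chr11:82991836-82991905 (both minus strand).
Slfn5: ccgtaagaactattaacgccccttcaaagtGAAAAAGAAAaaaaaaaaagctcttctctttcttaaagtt
Slfn8: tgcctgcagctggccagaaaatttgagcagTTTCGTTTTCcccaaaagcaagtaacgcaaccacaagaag
Slfn9: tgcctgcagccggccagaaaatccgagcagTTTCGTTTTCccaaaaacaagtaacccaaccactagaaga

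The core began 155 bases before the RefSeq start of Slfn5. It began 48 bases before that of Slfn8 in the upstream of its 2 windows and 45 bases before that of Slfn9. The gene span of Slfn5 given below is from another annotation and begins further upstream, at position 82951349. The core of Slfn5 thus lies inside that span. The windows of Slfn8 and Slfn9 were 84.9% identical when aligned, with a longest shared run of 20 bases. The windows of Slfn1, Slfn2, Slfn3 and Slfn4 held no such core. They shared the 9 letters ACTTCCTGG, all on the strand of the gene, and these stretches are shown because the set joins the 2 members with the largest rises to Slfn2 and to Slfn3, whose lower value after LPS passed the threshold in the full set of libraries but not when any 1 of 4 of them, given below, was left out. The run is in 277 of the 32851 windows (0.843%) and in none of the windows of Slfn5, Slfn8 or Slfn9, and it was picked after the sequences were seen. The stretches, with the run in capitals, lie on the plus strand at chr11:83116716-83116784 (Slfn1), chr11:83065027-83065095 (Slfn2), chr11:83191258-83191326 (Slfn3) and chr11:83175083-83175151 (Slfn4).
Slfn1: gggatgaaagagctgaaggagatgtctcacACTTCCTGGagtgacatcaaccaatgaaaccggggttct
Slfn2: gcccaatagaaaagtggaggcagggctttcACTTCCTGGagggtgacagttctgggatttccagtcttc
Slfn3: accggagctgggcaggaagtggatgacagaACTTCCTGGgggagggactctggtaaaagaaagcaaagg
Slfn4: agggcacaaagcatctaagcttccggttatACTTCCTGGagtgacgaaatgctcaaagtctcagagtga

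The run began 74, 55, 42 and 73 bases before the start of Slfn1, Slfn2, Slfn3 and Slfn4. Slfn1 and Slfn4 shared a longer stretch of 15 bases around it, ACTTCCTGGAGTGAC. In Slfn2 it overlapped a match to the PU.1 with IRF composite, GGAA and GAAA with any 2 bases between them, read on the other strand, which was in 2.72% of all windows and in no other member. The STAT gamma-activated site, TTCNNNGAA, was in 8.30% of all windows and 1 decamer of the kappa B site in 0.155%, and neither was in the window of any member. These matches describe letters in the windows and not binding.

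The short members differed widely in their vehicle levels. Slfn2 (ENSMUSG00000072620, chr11:83065112-83070678, 2 exonic blocks) was read at 410, 476, 602 and 346 CPM in vehicle replicates 1 to 4 and at 1267, 1511, 2162 and 1585 CPM in LPS replicates 1 to 4. The groups did not overlap, and replicate 3 was the highest library of each. The log2 fold change was 1.83 (SE 0.22, n = 4 per group, edgeR adjusted p = 6.84e-05), a 3.56-fold rise.

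Slfn1 (ENSMUSG00000078763, chr11:83116849-83122670, 2 exonic blocks), first described in thymocytes as a brake on growth, was read at 3.08, 4.43, 17.0 and 2.13 CPM in vehicle and at 696, 712, 929 and 648 CPM in LPS replicates 1 to 4. The vehicle values rest on 88, 128, 535 and 60 counts and the LPS values on 11635 to 19924 counts. Vehicle replicate 3 was far above the other 3 vehicle libraries, and all of them were far below every LPS library. The log2 fold change was 6.80 (SE 0.69, n = 4 per group, edgeR adjusted p = 2.30e-05), and without vehicle replicate 3 it was 7.91 (SE 0.31), which turns the 112-fold rise into a 241-fold one. Slfn1 shared 0.606% of its 50-base windows, the length of a read, with any other gene, the smallest share of the 7 members. That of Slfn2 was 4.27%, all with Slfn4.

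**Figure D2:**
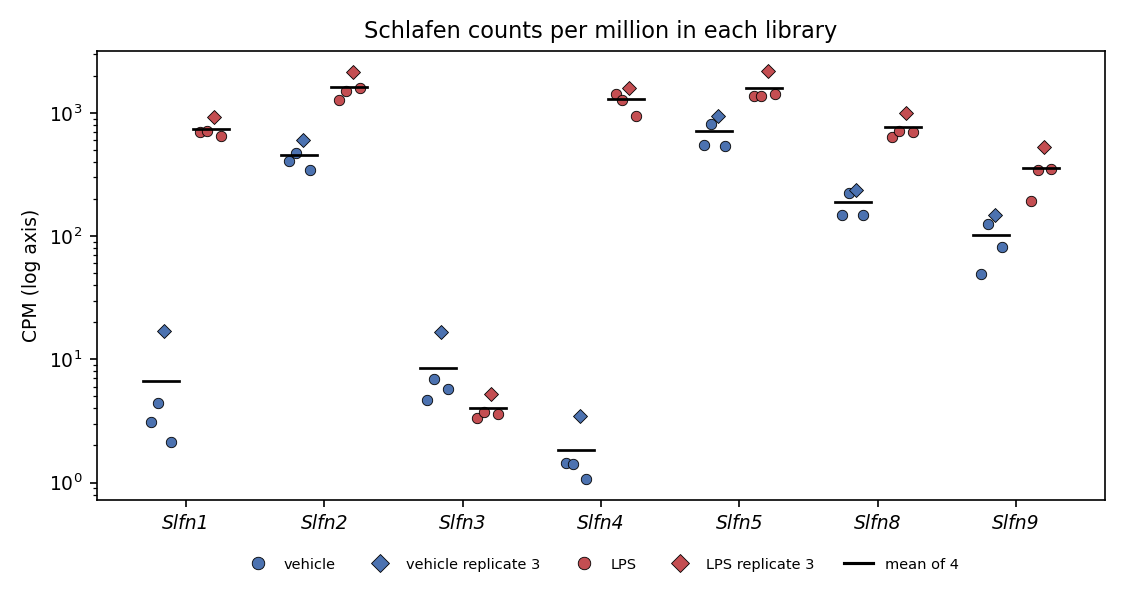
CPM after TMM scaling (log axis) of the 7 Schlafen members in each library, with vehicle libraries in blue, LPS libraries in red, replicate 3 of each group as a diamond and the mean of 4 libraries as a black line. Slfn1 and Slfn4 move from 1.07 to 17.0 CPM in vehicle to 648 to 1585 CPM in LPS libraries, while the 2 groups of Slfn3 overlap.

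Among the intermediate members, Slfn4 and Slfn3 moved in opposite directions although they are neighbours. Slfn4 (ENSMUSG00000000204, chr11:83175186-83190216, 8 exonic blocks) was read at 1.44, 1.42, 3.49 and 1.07 CPM in vehicle and at 1418, 1273, 1585 and 940 CPM in LPS replicates 1 to 4. The vehicle libraries held 41, 41, 110 and 30 counts of Slfn4, against 23698, 23377, 33989 and 17372 counts after LPS. All vehicle libraries were low and all LPS libraries high, with LPS replicate 4 the lowest of these. The log2 fold change was 9.45 (SE 0.45, n = 4 per group, edgeR adjusted p = 3.03e-07), and without vehicle replicate 3 it was 10.02 (SE 0.30), about 1035-fold. By mean RPKM, which also divides by exonic length, Slfn4 stood at place 11661 of the tested genes in vehicle and at place 157 after LPS, and Slfn1 moved from place 7020 to place 127.

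Slfn3 (ENSMUSG00000018986, chr11:83191330-83215154, 5 exonic blocks), known from T cells and from differentiation of the gut epithelium, was read at 4.69, 6.99, 16.7 and 5.75 CPM in vehicle and at 3.35, 3.76, 5.27 and 3.62 CPM in LPS replicates 1 to 4. Counts ran from 134 to 527 in vehicle and from 56 to 113 after LPS. LPS replicate 3 was above vehicle replicate 1, while each LPS library was below the vehicle library with its own number. The log2 fold change was -1.09 (SE 0.39, n = 4 per group, edgeR adjusted p = 0.0325), lower in 4 of 4 same-numbered pairs. Without vehicle replicate 3 the log2 fold change was -0.48 with an adjusted p of 0.0858 in edgeR. The adjusted p was 0.0756 without LPS replicate 1, 0.0756 without LPS replicate 2 and 0.0771 without LPS replicate 4 in the same test. The log2 fold changes in these fits were -1.01, -1.05 and -1.04, so the call was lost while the change stayed about as large. With the replicate number as a block the adjusted p was 0.00817 in edgeR, with a log2 fold change of -0.95.

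Reads of these 2 paralogs overlap in part. Of the 50-base windows of Slfn3, 7.39% also occur in Slfn4 and 6.45% in Gm11427, an annotated neighbour with 61 to 108 counts in vehicle and 83 to 331 in LPS libraries, while 6.28% of those of Slfn4 occur in Slfn3. Only uniquely aligned reads were counted. After LPS the counts of Slfn3 amounted to 0.236%, 0.295%, 0.332% and 0.386% of those of Slfn4 in replicates 1 to 4, and the part of Slfn4 reads in the Slfn3 counts was not tested. Summed with Slfn4, the pair had a log2 fold change of 6.97.

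The 3 long members were well above Slfn1, Slfn3 and Slfn4 in every vehicle library by CPM and rose by less than Slfn1 and Slfn4. Slfn5 (ENSMUSG00000054404, chr11:82951349-82964840, 8 exonic blocks), which in human cells is linked to the control of interferon-driven transcription, was read at 546, 807, 938 and 539 CPM in vehicle and at 1367, 1382, 2183 and 1414 CPM in LPS replicates 1 to 4. The groups did not overlap, and LPS replicate 3 stood above the other 3 LPS libraries, which were close together. The log2 fold change was 1.16 (SE 0.24, n = 4 per group, edgeR adjusted p = 0.00185), a 2.24-fold rise, and it was 0.48 without the TMM factors, with an adjusted p of 0.0476 in edgeR. Antisense gene Slfn5os overlaps 8.84% of the exonic bases of Slfn5. Since the use of strand in counting is not given in the sources used here, reads of the pair may not be told apart, and Slfn5os itself held 4 to 32 counts per library.

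Slfn8 (ENSMUSG00000035208, chr11:83002158-83020810, 6 exonic blocks) was read at 149, 226, 236 and 149 CPM in vehicle and at 633, 717, 1007 and 698 CPM in LPS replicates 1 to 4. Its log2 fold change was 2.01 (SE 0.22, n = 4 per group, edgeR adjusted p = 3.44e-05), a 4.02-fold rise. The lowest LPS library was well above the highest vehicle library. Slfn9 (ENSMUSG00000069793, chr11:82978390-82991830, 6 exonic blocks) was read at 49.6, 125, 149 and 82.2 CPM in vehicle and at 192, 343, 529 and 354 CPM in LPS replicates 1 to 4. Its groups did not overlap, and replicate 1 was the lowest library of each. The log2 fold change of Slfn9 was 1.80 (SE 0.38, n = 4 per group, edgeR adjusted p = 0.00213), a 3.49-fold rise.

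Slfn8 shared 9.30% of its 50-base windows with Slfn9 and 10.1% with the pseudogene Slfn10-ps. The effect of these shared windows on the counts was not tested. Slfn10-ps (ENSMUSG00000072621, chr11:83028130-83040042) rose from 26.2 ± 5.61 CPM to 121 ± 29.3 CPM (SD, n = 4 each), a log2 fold change of 2.20 (SE 0.21, edgeR adjusted p = 1.56e-05). Slfn5os had a log2 fold change of 1.58 (SE 0.53, edgeR adjusted p = 0.0242), with overlapping groups. Slfn14 and the Schlafen-like gene Slfnl1, which lies on chromosome 4, had at most 1 count in any library and were not tested.

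Levels of different members can be compared after division by exonic length (RPKM). In vehicle libraries the order was Slfn2 at 276 ± 65.7 RPKM, Slfn5 at 112 ± 31.3, Slfn8 at 46.4 ± 11.6, Slfn9 at 17.0 ± 7.44, Slfn1 at 3.57 ± 3.72, Slfn3 at 2.50 ± 1.62 and Slfn4 at 0.47 ± 0.28 RPKM (mean ± SD, n = 4). In this order the ranges of Slfn9 and Slfn1, and those of Slfn1 and Slfn3, overlapped, while other neighbours did not overlap. The overlap of Slfn9 and Slfn1 was lost when only bases not shared with other genes were counted as length. Without vehicle replicate 3 Slfn1 was at 1.72 ± 0.62, Slfn3 at 1.70 ± 0.34 and Slfn4 at 0.33 ± 0.05 RPKM (n = 3), and in vehicle replicate 4 Slfn3 was above Slfn1. The median over tested genes was 3.67 RPKM in vehicle, so the top 4 members were above it and Slfn1, Slfn3 and Slfn4 below.

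After LPS the order was Slfn2 at 980 ± 228 RPKM, Slfn1 at 400 ± 67.0, Slfn4 at 329 ± 69.2, Slfn5 at 251 ± 63.0, Slfn8 at 187 ± 40.7, Slfn9 at 59.4 ± 23.1 and Slfn3 at 1.17 ± 0.25 RPKM (mean ± SD, n = 4). The ranges of Slfn1 and Slfn4, Slfn4 and Slfn5, and Slfn5 and Slfn8 overlapped, yet the order of the 7 members was the same within each LPS library. Slfn2 was the highest member in all 8 libraries. It stood at place 69 of the tested genes by mean RPKM in vehicle and at place 57 after LPS. Together the 7 members summed to 457 ± 118 RPKM in vehicle and 2208 ± 453 RPKM in LPS libraries, and to 0.19% ± 0.05 and 0.50% ± 0.06 of all counts.

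The make-up of the family's RNA was compared as each member's share of its summed RPKM in a library. Slfn1 made up 0.43%, 0.48%, 1.5% and 0.33% in vehicle replicates 1 to 4 and 19.7%, 18.5%, 17.3% and 17.5% after LPS. Slfn4 made up 0.07% to 0.14% in vehicle and 18.9%, 15.6%, 13.9% and 11.9% in LPS replicates 1 to 4. These 2 members were thus nearly absent from the family's RNA in vehicle and together a large part of it in every LPS library.

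The share of Slfn2 fell from 60.5% ± 2.96 to 44.3% ± 3.19 and that of Slfn5 from 24.4% ± 1.3 to 11.3% ± 0.58 (mean ± SD, n = 4), although both genes rose. The share of Slfn8 went from 10.2% ± 0.81 to 8.44% ± 0.19 and that of Slfn3 from 0.52% ± 0.20 to 0.05% ± 0.00. For each of Slfn1, Slfn2, Slfn3, Slfn4, Slfn5 and Slfn8 the shares of the groups did not overlap. The two-sided exact permutation test gave p = 0.0286 for each, the smallest that 4 against 4 libraries allow, or 0.0333 after adjustment over the 7 members. In shares of raw counts without division by length, Slfn8 did not pass in this test (difference -1.0 percentage points, adjusted p = 0.1). Slfn9 went from 3.63% ± 0.97 to 2.64% ± 0.64, with p = 0.114 in the same exact permutation test, and was lower in 4 of 4 same-numbered pairs. The paired exact sign-flip test of 4 pairs cannot give a p below 0.125. Shares add up to a whole, so the members are not independent of each other here.

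**Figure D3:**
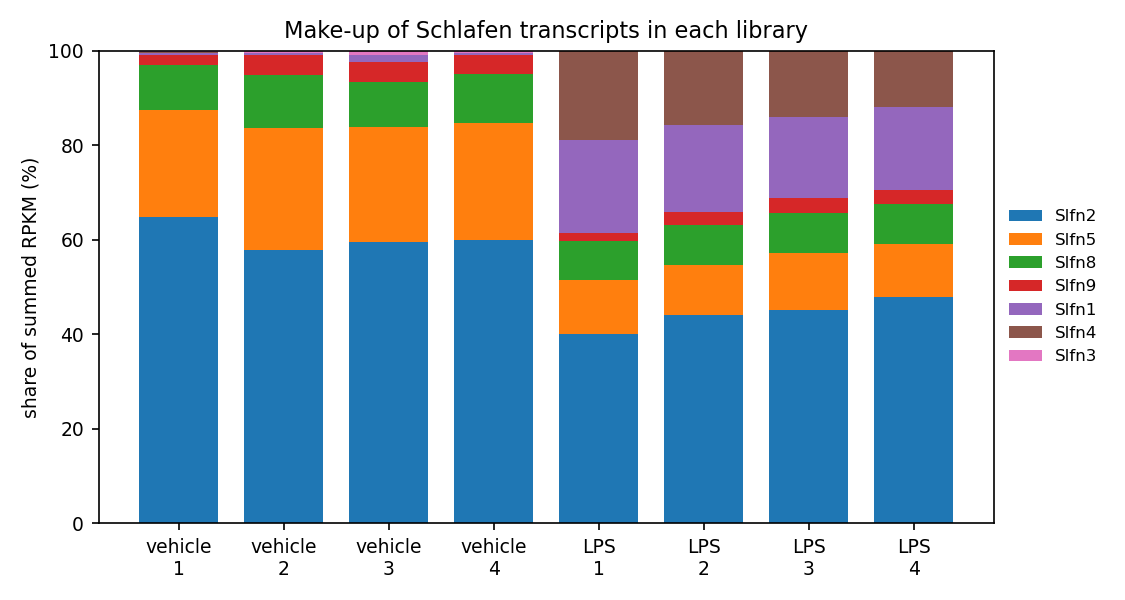
Share of each Schlafen member in the summed RPKM of the 7 members (y axis, percent) in each of the 4 vehicle and 4 LPS libraries, as stacked bars. Slfn2 is the largest part of every bar, and Slfn1 and Slfn4 take 17.3% to 19.7% and 11.9% to 18.9% in LPS libraries.

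Within each library, 3 pairs of like-sized paralogs were compared as log2 ratios of CPM + 1. The added 1 CPM weighs on Slfn4 and Slfn1 in vehicle, and with 0.1 CPM the differences of 9.68 and -5.13 given next became 10.41 and -5.42. The log2 ratio of Slfn4 to Slfn3 was -1.66 ± 0.32 in vehicle and 8.02 ± 0.28 in LPS libraries (mean ± SD, n = 4). That of Slfn2 to Slfn1 was 6.24 ± 0.80 in vehicle and 1.11 ± 0.19 in LPS libraries. Both pairs changed unequally, by 9.68 and -5.13, in 4 of 4 same-numbered pairs of libraries, each with p = 0.0286 in the two-sided exact permutation test and 0.0429 after adjustment over the 3 pairs.

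The log2 ratio of Slfn8 to Slfn9 was 1.57, 0.84, 0.66 and 0.85 in vehicle replicates 1 to 4 and 1.71, 1.06, 0.93 and 0.98 in LPS replicates 1 to 4. It differed by 0.19 between the means, with p = 0.457 in the same exact permutation test, and replicate 1 was the highest library of each group. The differences within same-numbered pairs ran from 0.13 to 0.27. A p above the threshold does not show that the 2 genes changed alike.

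The change was also followed past the ends of the locus, in the 5 nearest protein-coding genes on either side. Of these 10 genes 5 passed the filter, and 2 were higher and 1 lower, a share of calls near the 64.1% of all tested genes. Rffl, which encodes a ubiquitin ligase, had a log2 fold change of 1.56 (SE 0.20), and Ap2b1, a subunit of the clathrin adaptor, one of 0.64 (SE 0.12), both higher in edgeR (adjusted p = 0.000112 and 0.00109). Nle1, linked to ribosome assembly, was lower, at -1.57 (SE 0.32, edgeR adjusted p = 0.00184).

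The DNA repair gene Rad51d, at -0.22, did not pass the threshold. Fndc8, Unc45b, Rasl10b, Gas2l2 and 1700020L24Rik had at most 37 counts in any library and were not tested. Without the TMM factors the log2 fold change of Ap2b1 was -0.05, with an edgeR adjusted p of 0.627, and the split was 1 higher and 3 lower. Within the locus the 2 largest rises were those of the neighbours Slfn1 and Slfn4, and next to Slfn4 lies Slfn3, whose fall lost its call without vehicle replicate 3 or without LPS replicate 1, 2 or 4, as given above.

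**Figure D4:**
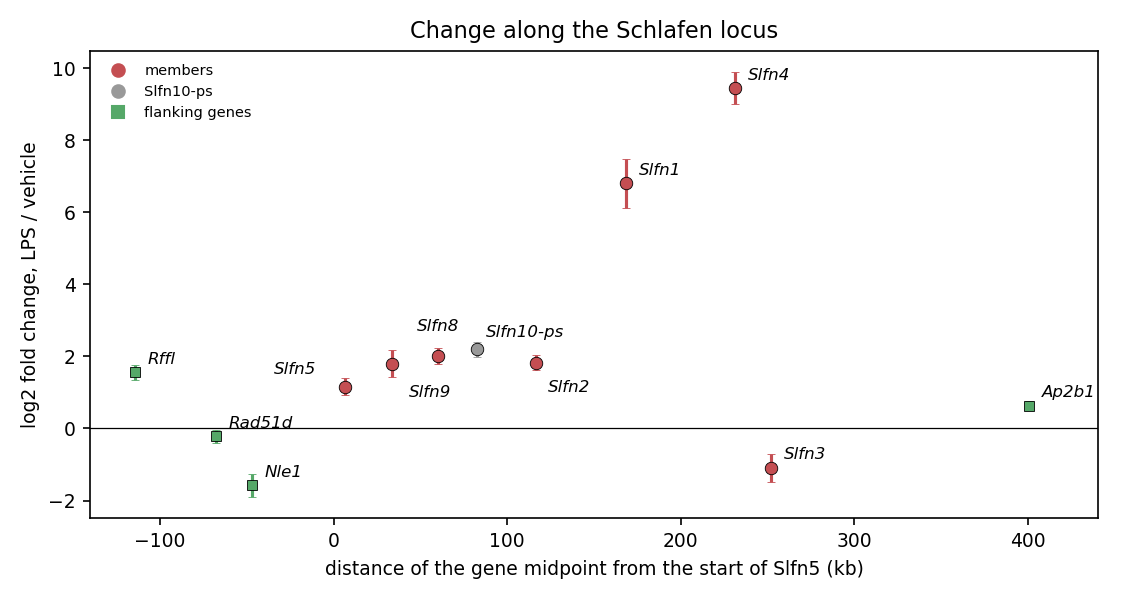
Log2 fold change of LPS over vehicle (y axis, with SE from edgeR as bars) against the distance in kb of each gene's midpoint from the start of Slfn5 (x axis), for the 7 members in red, the pseudogene Slfn10-ps in grey and 4 tested flanking genes in green. Slfn1 and Slfn4 stand at 6.80 and 9.45, their neighbour Slfn3 at -1.09, and these flanking genes lie between -1.57 and 1.56.

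Because Schlafen genes are known as interferon targets, a list of 30 genes of the type I interferon pathway was read in the same fit. Of the 25 that were tested, 23 were higher and none was lower, beside 30.3% higher and 33.8% lower among all tested genes, and the median log2 fold change was 2.86, beside -0.11. At an unadjusted p under 0.05 in edgeR, 24 of the 25 passed, beside 9394 of all 13847 tested genes. Without the TMM factors the split was 19 higher and 3 lower. Ligand transcripts were scarce at 24 h. Ifnb1, the interferon beta gene, had at most 7 counts in vehicle and 15 in LPS libraries, and Ifna4 at most 1. Ifna1, Ifna2 and Ifna5 were at 0 counts in every library, so none of the 5 ligand genes was tested. A count of 0 does not exclude a level too low for the depth of these libraries.

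The receptor subunit Ifnar2 rose by 0.72 (SE 0.10) and the kinase Jak1 by 0.89 (SE 0.13) on the log2 scale. Ifnar1, at 0.35, and the kinase Tyk2, at 0.36, also passed as higher, but without the TMM factors they were at -0.34 and -0.31 and passed as lower. Of the factors that carry the signal to the nucleus, Stat2 rose by 1.99 (SE 0.24) and Irf9 by 1.19 (SE 0.14). Irf7, the interferon-inducible factor that amplifies the response, rose by 3.54 (SE 0.37), and Irf1 by 1.44 (SE 0.27).

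Irf3, the constitutive factor upstream of interferon beta, was at 0.09 and Irf8, a factor of myeloid identity, at 0.43, and neither passed the threshold (edgeR adjusted p = 0.639 and 0.0587). Both were below 0 without the TMM factors, at -0.57 and -0.23, where Irf3 passed as lower, and Irf3 was at -0.05 with upper quartile scaling. The 4 largest changes of the list were those of Socs3, an inhibitor of cytokine receptor signalling, at 7.13 (SE 0.36), the antiviral gene Rsad2 at 5.81 (SE 0.65), the chemokine gene Cxcl10 at 5.21 (SE 0.53) and Cmpk2, a mitochondrial nucleotide kinase, at 5.09 (SE 0.59). The change of Slfn4 was above that of every tested gene of this list, and the change of Slfn1, at 6.80, lay between those of Socs3 and Rsad2. Without vehicle replicate 3 Slfn1 was at 7.91 (SE 0.31) and Socs3 at 7.37 (SE 0.41), and the difference between these 2 genes was not tested. Irf8 passed as higher without that library, at 0.59 (edgeR adjusted p = 0.0319).

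The second list held 21 genes linked to antiviral or RNA-directed defence, most of which encode proteins that bind or cut RNA. Of the 21, all tested, 17 were higher and 2 lower, again beside 30.3% and 33.8% of all tested genes, with a median log2 fold change of 1.62. The largest changes were those of Oasl1, of the oligoadenylate synthetase family, at 4.93 (SE 0.53), the exonuclease gene Isg20 at 4.67 (SE 0.35), Oas1b at 2.90 (SE 0.25) and Ang, at -2.60 (SE 0.23). Ang encodes angiogenin, a ribonuclease that cuts transfer RNA.

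Ang was read at 10.3, 10.7, 15.5 and 13.2 CPM in vehicle and at 1.74, 1.85, 2.89 and 1.68 CPM in LPS replicates 1 to 4. Rnh1, which encodes the inhibitor of angiogenin, was at 0.07 and the exonuclease gene Xrn1 at 0.30 on the log2 scale, and neither passed (edgeR adjusted p = 0.625 and 0.208). Without the TMM factors these were at -0.61 and -0.41 and passed as lower. Samhd1, a triphosphohydrolase of this list, is also among the genes nearest to Slfn2 below.

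**Figure D5:**
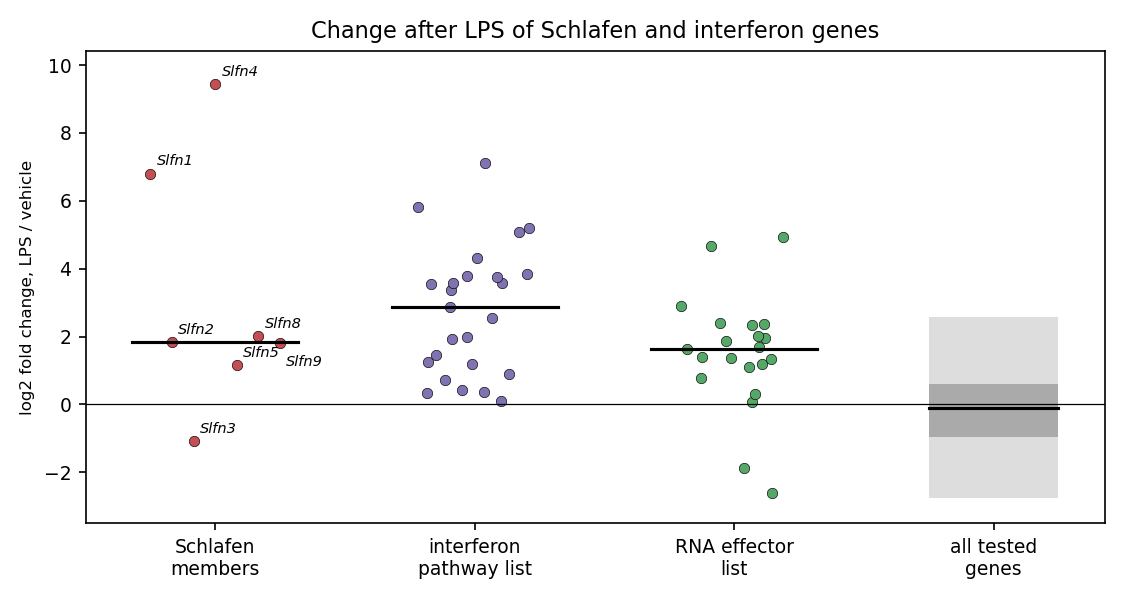
Log2 fold change of LPS over vehicle (y axis) of the 7 Schlafen members, the 25 tested genes of the interferon pathway list and the 21 of the RNA effector list (points, 1 per gene, with the median as a black line), beside all tested genes (dark bar, 25th to 75th percentile, and light bar, 5th to 95th percentile, with the median as a line). The medians are 1.83, 2.86 and 1.62, and that of all tested genes is -0.11, with a 5th to 95th percentile range of -2.77 to 2.59.

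For the most abundant member, Slfn2, and the member with the largest change, Slfn4, the genes with the nearest pattern over the 8 libraries were found among 11010 genes, as the Euclidean distance between mean-centred log2(CPM + 1) values. Nearest to Slfn2 were Rnf135, a ubiquitin ligase gene, at a distance of 0.289, Samhd1 at 0.314, Epsti1 at 0.347, the kinase gene Prkx at 0.357 and the deubiquitinase gene Usp25 at 0.365. Their log2 fold changes ran from 1.69 to 2.00. Samhd1 was the nearest in level, at 548 CPM in vehicle and 1770 CPM in LPS libraries, beside 458 and 1631 CPM for Slfn2.

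Nearest to Slfn4 were the nucleoside transporter gene Slc28a2 at a distance of 1.16, S100a8, a calcium-binding protein of myeloid cells, at 1.16, the cytokine gene Il6 at 1.31, the chemokine gene Ccl5 at 1.31 and the uridine phosphorylase gene Upp1 at 1.42. These 5 rose from low levels, with log2 fold changes from 8.30 to 11.97. Only Ccl5 was above 2 CPM in vehicle, at 21.4 CPM. All distances are over 8 libraries that share the contrast, and describe these libraries alone.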

How the data were processed

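RNA of 4 vehicle and 4 LPS microglia libraries was read in single-end runs of 50 bases. The authors deposited raw counts per Ensembl gene, made with HTSeqGenie from reads that GSNAP aligned uniquely to GRCm38. The annotation release and the use of strand in counting are not given in the sources used here. Per the labels the libraries were made with a stranded TruSeq kit and read on a NovaSeq, while the study's methods give a TruSeq RNA kit and a HiSeq.

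Symbols, exons and transcripts came from GENCODE vM21, which matched 52489 of 52636 identifiers, and the 147 unmatched rows held 0.00512% of counts. Promoter windows came from RefSeq (GRCm38.p6). Genes were filtered with filterByExpr (minimum count 10, minimum total count 15), scaled by TMM and tested with edgeR 4.0.16 (quasi-likelihood, two-sided) in R 4.3.3 with both groups in 1 fit. Benjamini-Hochberg adjustment ran over the 13847 tested genes, and adjusted p under 0.05 counted as changed. RPKM used TMM library sizes and the exonic length of all transcripts. Shares and ratios were compared by exact permutation over the 70 divisions of the 8 libraries. Python 3.11.15 with numpy 2.4.6, pandas 2.3.3, scipy 1.17.1 and matplotlib 3.10.9 made tables and figures. The fits were also run on simulated counts in which few genes changed, unlike in these data, so that run does not bear on the scaling.

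The members and lists were chosen with earlier results of these data known. Named genes were the 7 members, other genes with the prefix Slfn, the flanking genes and the 5 genes nearest to Slfn2 and to Slfn4. The nearest genes were sought where the log2 of the mean CPM over the 8 libraries was 1 or more. From each list came the 4 largest changes that passed the threshold. The ligand, receptor, kinase, STAT and IRF genes of the interferon list were also named. Genes of the effector list that fell or did not pass, and Gm11427, were named after their values were seen. A few genes that these rules name are counted but not reported singly here. Cell type markers were taken for 10 cell types.

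The sources do not say whether same-numbered libraries share a culture. Over the 8382 genes whose mean log2 CPM was 3 or more, deviations from the group means correlated at 0.361, 0.183, 0.183 and 0.130 between same-numbered libraries. All are over 0.1, the limit for reading the numbers as pairs, and fits with the replicate block were run as alternatives. The main tests were unpaired. The exchanged pairs of replicates 2 and 4 correlated at 0.154 and 0.141. Alternatives were DESeq2 1.42.0, upper quartile and relative log expression scaling, no filter, at least 10 counts in every library, the replicate block, stricter thresholds, summed paralogs, other lengths, another pseudocount (0.1 in place of 1 CPM), each library left out, and total counts without TMM factors, the last chosen after seeing the data.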

Additional observations from a re-analysis of the deposited data

Results flagged for a closer look

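In 34 groups of 4 libraries (the CPM and shares of the members and the paralog ratios), 1 library stood far from the other 3 in 4 cases. About 1 in 20 groups is flagged in this way by chance. The log2 CPM of Slfn5 in LPS replicate 3 was 11.09, or 2183 CPM, above the other 3 LPS libraries. The share of Slfn1 in vehicle replicate 3 was 1.5%, above the other vehicle libraries. The share of Slfn3 in LPS replicate 1 was 0.052%, just below the other LPS libraries, and that of Slfn9 in vehicle replicate 1 was 2.18%, below the other vehicle libraries.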

How the results depend on the processing

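The counts of the members, of the interferon list and of the effector list stayed within 1.5 times their values under each alternative run, and the rises of 6 members passed the threshold under all. The call of Slfn3 as lower was lost at an adjusted p of 0.01 in the main fit, and without LPS replicate 1, 2 or 4 or vehicle replicate 3. Its log2 fold change was -1.01, -1.05 and -1.04 without LPS replicates 1, 2 and 4, near the -1.09 of all libraries. Without vehicle replicate 3 it was -0.48. The sum of Slfn3 and Slfn4 had a log2 change of 6.97, which follows Slfn4, by far the larger count after LPS, and does not bear on the fall of Slfn3. The number of changed genes was 5222 with a minimum log2 change of 1, and the flanking genes that changed numbered 5 with no filter. Upper quartile scaling moved the median of all genes by -0.16 and no filter by -0.19. In the share of raw counts without division by length, the difference of Slfn8 was -1.0 (adjusted p = 0.1, exact permutation). With the replicate block, edgeR changed no call of a member. For shares and ratios the block, as exact sign flips over 4 pairs, cannot give a p under 0.125, so the differences in share of Slfn1 (17.6), Slfn2 (-16.2), Slfn3 (-0.46), Slfn4 (15.0), Slfn5 (-13.1) and Slfn8 (-1.74 percentage points) and in ratio of Slfn2 to Slfn1 (-5.13) and Slfn4 to Slfn3 (9.68) passed no threshold. With a library left out the exact permutation test cannot go below 0.0571, which says nothing about stability. Depth limits Slfn3, Slfn4 and Slfn1 in vehicle, with as few as 30 counts. Leaving out each library in turn gave log2 changes of 6.52 to 7.91 (Slfn1), 1.67 to 2.04 (Slfn2), -1.28 to -0.48 (Slfn3), 9.27 to 10.02 (Slfn4), 0.98 to 1.39 (Slfn5), 1.85 to 2.19 (Slfn8) and 1.55 to 2.10 (Slfn9). Shares then differed by 17.1 to 17.9 (Slfn1), -17.4 to -14.8 (Slfn2), -0.52 to -0.37 (Slfn3), 13.7 to 16 (Slfn4), -13.6 to -12.6 (Slfn5), -1.97 to -1.41 (Slfn8) and -1.48 to -0.68 percentage points (Slfn9). Ratios differed by -5.52 to -4.95 (Slfn2 to Slfn1), 9.56 to 9.82 (Slfn4 to Slfn3) and 0.01 to 0.39 (Slfn8 to Slfn9). Changed genes numbered 8031 to 9314, of the interferon list 22 to 24, of the effector list 19, of the members 6 to 7 and of the flanking genes 3 to 4.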
